A study of Rattus norvegicus with 18 samples.

Results

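The lactoperoxidase, dual oxidase and NADPH oxidase genes of the rat lung were described here as a group of 9 genes among the 22081 genes listed in the files. They were *Lpo*, *Duox1*, *Duox2*, *Duoxa2*, *Cybb*, *Cyba*, *Ncf1*, *Ncf4*, and *Nox4*, found by symbol in the tables of all 3 time points. The genes were selected with the MWCNT against control results already known. The values of that comparison are therefore given for them as a description, without a test.

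RNA-seq was performed on lungs of male F344/DuCrlCrlj rats, an inbred wild-type strain. MWCNT-treated rats received MWNT-7, a multiwalled carbon nanotube, at 0.5 mg/kg body weight by intratracheal instillation every 4 weeks from 9 weeks of age, up to 26 times over the experiment, and control rats received the vehicle on the same schedule (the nanotubes were suspended in saline with Tween 80). Lungs were taken at Years 0.5, 1, and 2 of dosing, from 3 rats of either treatment each time and 18 rats in all, so that nanotube load and age of the animal rose together. The tissue was a piece of the accessory lobe with nodules left out, and 1 library was made per rat.

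Lactoperoxidase is a secreted heme peroxidase of airway fluid and milk. Its main substrate there is thiocyanate, which it turns into a mild oxidant that stops bacteria from growing, and the reaction consumes peroxide. In the airway the peroxide comes from the dual oxidases, which sit in the apical membrane of epithelial cells and need a maturation factor to leave the endoplasmic reticulum. The NADPH oxidase of phagocytes instead makes superoxide from a membrane core, gp91phox and p22phox, once cytosolic subunits have joined it, and NOX4 is a relative that shares p22phox and is active without cytosolic subunits.

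*Lpo* (ENSRNOG00000008422) lies on chromosome 10, 75100385 to 75120247, minus strand, in Rnor_6.0, the rat genome build of the files. Its neighbors there are other heme peroxidase genes. *Mpo* ended 2124 bases from *Lpo*, and *Epx* followed on the other side of *Mks1*. The dual oxidase genes stand together on chromosome 3 in the order *Duox2*, *Duoxa2*, *Duoxa1*, *Duox1*, with gaps of 784, 970, and 1989 bases. *Duox2* (114218193 to 114235933, minus strand) and *Duoxa2* (114236718 to 114240086, plus strand) are head to head, as are *Duoxa1* (114241057 to 114251647, minus strand) and *Duox1* (114253637 to 114286802, plus strand). The other members are scattered: *Cybb* on chromosome X (14578264 to 14612547), *Cyba* on 19 (55249616 to 55257876), *Ncf1* on 12 (25497104 to 25506300), *Ncf4* on 7 (119482272 to 119499425), and *Nox4* on 1 (150797084 to 150976194). No other listed gene overlapped a member, and 0 of the 9 therefore shared reads with an overlapping entry.

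The sequences just upstream of the start sites are shown for the secreted peroxidase, for the dual oxidase that differed between treatments, and for the catalytic subunit of the phagocyte enzyme. They are the 250 bases before the start site of the RefSeq promoter table for GRCr8, a later rat build than that of the files, written 5′ to 3′ on the strand of the gene. Capitals mark matches on either strand to TATAAA, the core of the TATA box, and to GAGGAA, the core bound by the myeloid factor PU.1. The windows are chr10:73123457-73123706 on the minus strand for *Lpo*, chr3:129715746-129715995 on the plus strand for *Duox1*, and chrX:16065066-16065315 on the minus strand for *Cybb*.
Lpo: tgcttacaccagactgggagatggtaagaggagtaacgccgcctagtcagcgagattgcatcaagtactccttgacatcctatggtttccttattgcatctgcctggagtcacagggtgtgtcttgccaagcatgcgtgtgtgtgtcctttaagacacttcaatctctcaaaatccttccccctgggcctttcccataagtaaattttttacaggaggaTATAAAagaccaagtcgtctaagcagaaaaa
Duox1: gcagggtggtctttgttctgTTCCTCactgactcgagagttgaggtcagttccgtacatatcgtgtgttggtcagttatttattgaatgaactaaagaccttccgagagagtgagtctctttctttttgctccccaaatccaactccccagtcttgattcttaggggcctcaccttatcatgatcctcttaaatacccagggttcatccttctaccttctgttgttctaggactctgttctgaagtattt
Cybb: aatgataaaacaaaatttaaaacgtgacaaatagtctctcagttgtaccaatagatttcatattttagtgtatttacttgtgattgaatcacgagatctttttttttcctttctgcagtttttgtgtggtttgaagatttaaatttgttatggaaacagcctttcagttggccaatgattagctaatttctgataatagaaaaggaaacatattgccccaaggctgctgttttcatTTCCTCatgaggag

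In the *Lpo* window TATAAA began 31 bases before the start site. In *Cybb* the GAGGAA core began 14 bases before it on the opposite strand, and in *Duox1* 230 bases before it, also on the opposite strand. Entries were found for 7 of the 9 members, all but *Duoxa2* and *Ncf4*. Of the other windows, that of *Duox2* held TATAAA 163 bases upstream on the opposite strand, and those of *Cyba*, *Ncf1*, and *Nox4* held neither core. TGACTCA, the core bound by AP-1, was searched as well and occurred in none of the 7 windows. Among all 33469 windows of the table, 23.3% held GAGGAA, 12.9% held TATAAA, and 4.05% held TGACTCA on either strand. A match is a run of letters and is not a measured binding site.

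Levels are given below as TPM, the read count of a gene corrected for its length and scaled to the same total in each rat, and differences as log2 fold changes fitted to the counts with edgeR. The 2 scales differ. The median log2 fold change over all genes was -0.15, -0.21, and -0.20 on log2(TPM + 1) at Years 0.5, 1, and 2, beside -0.02, 0.00, and -0.01 on the counts. Ranges and sums in TPM carry this shift toward lower values in MWCNT-treated rats. The SE given with a log2 value was derived from the test. It is the absolute log2 value divided by the square root of the F statistic, and is approximate. A gene was called different when its false discovery rate (FDR, Benjamini-Hochberg adjusted over all genes tested) was below 0.05 and its absolute log2 fold change above 1. Total counts per rat were 13297643 to 21130757. Lung identity was plain in the libraries, with the 7 alveolar type 2 cell markers summing to 27956 to 61124 TPM in each rat. Heart muscle genes were present at 1.63 to 296 TPM (sum of 4 markers), unevenly among rats of the same group, and the 3 of them that were tested were called lower in MWCNT-treated rats at Year 0.5 and not called at Years 1 and 2. In such bulk tissue, fewer cells of a type and less RNA per cell cannot be told apart.

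*Lpo* was close to silent in control lungs and rose through the time course in MWCNT-treated lungs. The 3 control rats had 0.410, 0.295, and 0.138 TPM at Year 0.5, which were 10, 6, and 3 counts, then 0.246, 0.458, and 0.501 TPM at Year 1 and 0.139, 0.408, and 1.85 TPM at Year 2. The MWCNT-treated rats had 9.79, 12.9, and 12.2 TPM at Year 0.5, 107, 64.0, and 83.1 TPM at Year 1, and 213, 212, and 181 TPM at Year 2. The lowest MWCNT-treated rat therefore stood above the highest control rat, and the 3 MWCNT groups did not overlap one another, whereas the 3 control groups did. By mean TPM *Lpo* ranked 15136th of the 22081 genes in control lungs at Year 0.5 and 638th in MWCNT-treated lungs at Year 2.

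The log2 fold change of *Lpo* between treatments was 5.47 (SE 0.28) at Year 0.5, 7.90 (SE 0.25) at Year 1, and 8.24 (SE 0.38) at Year 2. The Year 2 value leans on 1 control rat, replicate 3, whose 37 counts were more than those of any other control rat. Without it the log2 fold change at Year 2 was 9.70, a shift larger than the SE given for that year. The same rat was also the highest of the Year 2 controls for *Cybb*, at 119 TPM against 82.2 and 91.4 TPM. Within the MWCNT-treated rats, *Lpo* was 2.91 (SE 0.23) higher on the log2 scale at Year 1 than at Year 0.5 and 4.20 (SE 0.24) higher at Year 2. It was 1 of the 7 genes that met the call at Year 1, 0.0472% of the 14843 tested. This time course was part of what was known when the genes were selected and is given as a description.

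**Figure D1:**
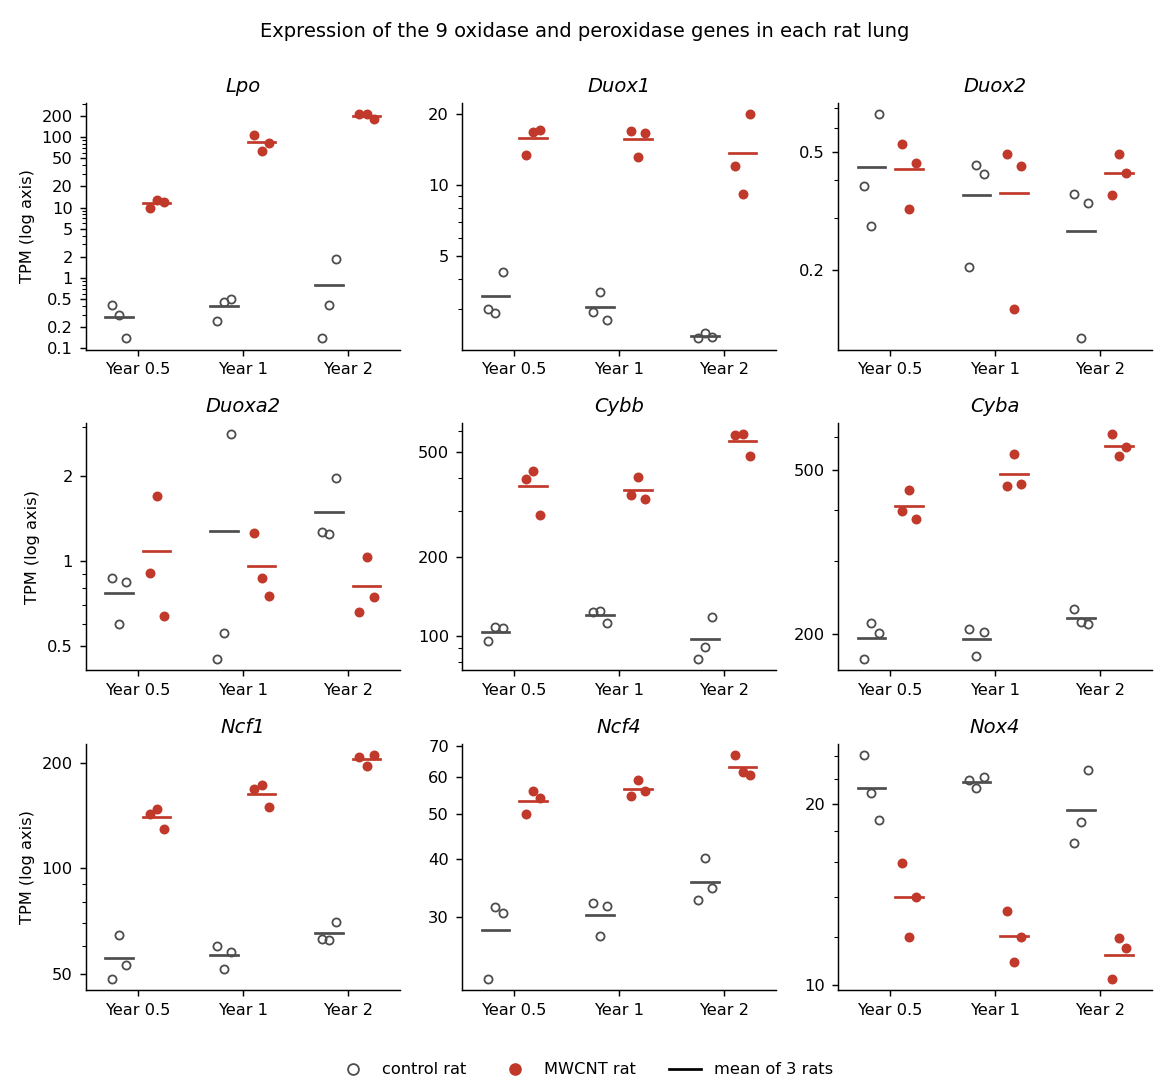
Expression of the 9 genes in each rat, with TPM on a log axis whose range differs between panels, the 3 time points on the horizontal axis, open circles for control rats, filled circles for MWCNT-treated rats, and bars for the mean of 3 rats. *Lpo* climbs from 9.79 to 213 TPM across the treated rats, *Duox2* overlaps between treatments at each time point and *Duoxa2* at Years 0.5 and 1, and *Nox4* is the panel in which the treated rats lie below the controls at each time point.

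Of the dual oxidases, *Duox1* was the one that differed. Control rats had 2.97, 2.87, and 4.28 TPM at Year 0.5, 2.91, 3.52, and 2.69 TPM at Year 1, and 2.24, 2.37, and 2.27 TPM at Year 2. MWCNT-treated rats had 13.4, 16.9, and 17.2 TPM at Year 0.5, 17.0, 13.2, and 16.7 TPM at Year 1, and 12.0, 9.17, and 20.1 TPM at Year 2. All MWCNT-treated rats were above all controls, and the 3 MWCNT groups overlapped. The log2 fold change was 2.38 (SE 0.16), 2.60 (SE 0.12), and 2.79 (SE 0.27) at Years 0.5, 1, and 2, and the lowest Year 2 value with 1 rat left out was 2.44.

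*Duox2*, the second dual oxidase, was barely expressed. Its levels ran from 0.117 to 0.669 TPM (5 to 28 counts) in control rats and from 0.148 to 0.531 TPM (8 to 25 counts) in MWCNT-treated rats, and the groups overlapped at each time point. The log2 fold changes were 0.10 (SE 0.39), 0.21 (SE 0.47), and 0.86 (SE 0.45). *Duox2* was not called at any time point, and at 5 to 28 counts per rat its fold changes were imprecise. *Duoxa2*, the maturation factor of DUOX2, had 3 to 24 counts per rat, 0.450 to 2.81 TPM, and was removed by the filter on low counts in the fits of single time points. Its highest value belonged to a control rat of Year 1, and the ranges of the 2 treatments overlapped at Years 0.5 and 1 and were apart at Year 2, with 1.24 to 1.98 TPM in controls and 0.657 to 1.04 TPM in MWCNT-treated rats.

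The secreted peroxidase and the apical oxidase thus had different time courses. *Lpo* TPM was 0.735 ± 0.0278 times *Duox1* TPM (SD, n = 3) in MWCNT-treated rats at Year 0.5, 5.37 ± 0.802 times at Year 1, and 16.6 ± 7.12 times at Year 2. In control rats the ratio ranged from 0.0324 to 0.813. In the same rats *Duox1* differed from its Year 0.5 level by 0.04 (SE 0.20) at Year 1 and by -0.12 (SE 0.20) at Year 2 on the log2 scale.

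The 4 measured subunits of the phagocyte NADPH oxidase were abundant genes in both treatments. *Cybb*, which encodes the catalytic subunit gp91phox, had 96.1, 108, and 107 TPM in control rats at Year 0.5, 124, 124, and 112 TPM at Year 1, and 82.2, 91.4, and 119 TPM at Year 2. MWCNT-treated rats had 396, 425, and 289.8 TPM at Year 0.5, 343, 402, and 333 TPM at Year 1, and 581, 584, and 483 TPM at Year 2. The Year 0.5 and Year 1 groups of treated rats overlapped, and the Year 2 group lay above both. The log2 fold changes between treatments were 1.98 (SE 0.14), 1.82 (SE 0.12), and 2.72 (SE 0.14).

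*Cyba*, which encodes p22phox, the partner that stabilizes gp91phox and also NOX4, had 174 to 213 TPM in control rats at Year 0.5, 177 to 205 TPM at Year 1, and 211 to 230.0 TPM at Year 2. MWCNT-treated rats had 397, 447, and 379 TPM, then 457, 547, and 461 TPM, then 609, 540.5, and 567 TPM. The treated rats stayed above the controls, and their Year 1 and Year 2 ranges met. The log2 fold changes were 1.20 (SE 0.10), 1.57 (SE 0.12), and 1.60 (SE 0.09).

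The cytosolic subunits followed. *Ncf1*, for the organizer p47phox, had 48.3 to 64.7, 51.6 to 60.1, and 62.5 to 70.5 TPM in control rats at the 3 time points. In MWCNT-treated rats it had 143, 148, and 129 TPM, then 168, 173, and 149 TPM, then 208, 196, and 211 TPM, 3 groups without overlap. The log2 fold changes were 1.49 (SE 0.11), 1.77 (SE 0.11), and 1.87 (SE 0.08). *Ncf4*, for p40phox, which binds phosphoinositides of the phagosome, had 22.1 to 31.6, 27.4 to 32.1, and 32.7 to 40.2 TPM in control rats and 49.97, 56.1, and 54.2, then 54.8, 59.2, and 56.1, then 67.1, 61.5, and 60.8 TPM in MWCNT-treated rats. Its log2 fold changes were the smallest of the 4 subunits, 1.08 (SE 0.13), 1.14 (SE 0.11), and 1.04 (SE 0.09), so that it sat at the limit of the call. Without control replicate 1 at Year 0.5 its log2 fold change was 0.92. At Year 2 it was 0.97 without MWCNT replicate 1 and 0.999 or 1.00 (just under the limit) without control replicate 3 or 1.

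The subunits kept unequal proportions. *Ncf4* TPM was 0.507 ± 0.0617, 0.538 ± 0.00906, and 0.552 ± 0.0797 times *Ncf1* TPM in control rats (SD, n = 3) and 0.383 ± 0.0352, 0.348 ± 0.0256, and 0.308 ± 0.0180 times in MWCNT-treated rats. At each time point the treated ratios lay below the control ratios without overlap. *Cybb* TPM was 0.449 to 0.621 times *Cyba* TPM on average in the 3 control groups and 0.737 to 0.962 times in the 3 treated groups.

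*Nox4* went the other way. Control rats had 24.2, 20.9, and 18.8 TPM at Year 0.5, 21.9, 21.3, and 22.2 TPM at Year 1, and 17.2, 18.6, and 22.8 TPM at Year 2. MWCNT-treated rats had 15.9, 12.0, and 14.0 TPM, then 13.3, 10.9, and 12.0 TPM, then 10.2, 12.0, and 11.5 TPM. The treated rats were below the controls at each time point without overlap. Within a treatment, neighboring groups in the order of levels overlapped, whereas the treated rats of Year 2 lay narrowly below those of Year 0.5. The log2 fold changes were -0.47 (SE 0.12), -0.62 (SE 0.08), and -0.58 (SE 0.11), within the limit of 1, and *Nox4* was therefore not called at any time point.

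**Figure D2:**
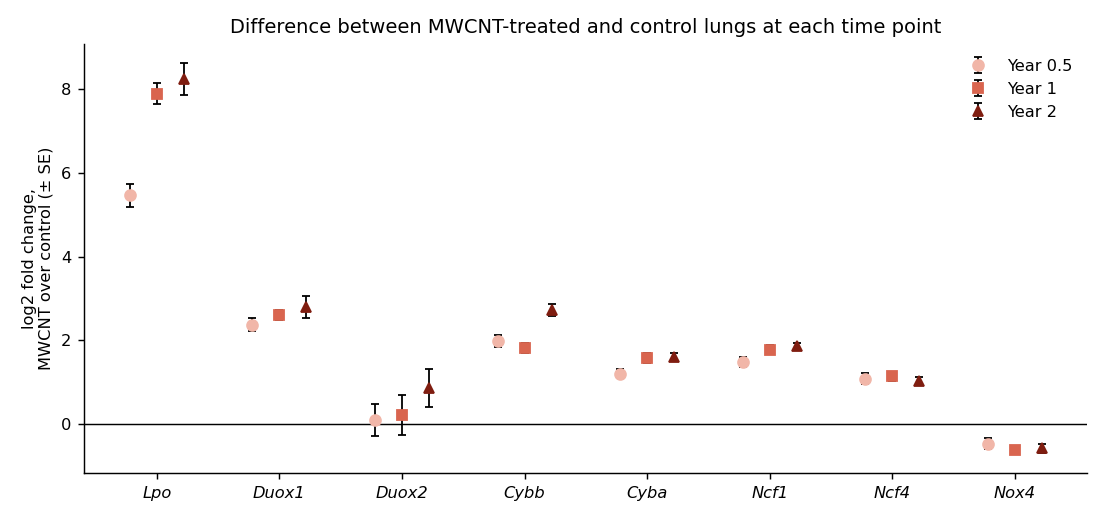
Log2 fold change of MWCNT-treated over control lungs, with its standard error, for the 8 members that passed the filter on low counts, at Year 0.5 (circles), Year 1 (squares), and Year 2 (triangles). *Lpo* stands at 5.47 to 8.24, *Duox1* and the 4 phagocyte subunits at 1.04 to 2.79, *Duox2* at 0.10 to 0.86 with standard errors of 0.39 to 0.47, and *Nox4* below 0.

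Counted together, 6 members were called higher and 0 lower among the 8 tested at each time point. Of all genes tested, 6.07% were called higher and 3.03% lower at Year 0.5, 6.13% and 4.09% at Year 1, and 8.17% and 8.22% at Year 2. Since the members were selected on this comparison, nothing is read from their count. When only library sizes were used for scaling, the median over all genes moved by -0.10, -0.13, and -0.17 on the log2 scale at the 3 time points and the share of higher calls among all calls fell from 66.7% to 54.2%, from 60.0% to 45.2%, and from 49.9% to 37.5%. Under that scaling 5, 6, and 5 members were called higher, *Ncf4* being the one lost at Years 0.5 and 2, and no called member changed direction.

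The changes of the phagocyte subunits between time points are also given as a description, since the levels in all 6 groups were known when the genes were selected. In MWCNT-treated rats at Year 2 against Year 0.5, *Cybb* was higher by 0.65 (SE 0.15), *Cyba* by 0.57 (SE 0.11), and *Ncf1* by 0.63 (SE 0.10) on the log2 scale. These 3 stayed below the fold limit of the call, and *Ncf4* had 0.33 (SE 0.12). Of all genes, 2.34% met the full call in this comparison and 13.5% the FDR alone, and among the members *Lpo* met it. At Year 1 the 4 subunits had log2 values of 0.02 to 0.33.

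The control rats are described likewise. None of the 9 members was called by edgeR at Year 1 or Year 2 against Year 0.5, where 0% and 0.633% of all genes were called. At an unadjusted p under 0.05 there were 0 members at Year 1 and 3 at Year 2, beside 7.01% and 24% of all genes, and DESeq2 and limma also called 0 members at both. At Year 2 *Ncf4* had 0.36 (SE 0.12), *Ncf1* 0.24 (SE 0.11), and *Duox1* -0.55 (SE 0.25) relative to Year 0.5. The control value of *Lpo* at Year 2, 1.42 (SE 0.73), became -0.04 without replicate 3.

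The treatment difference at a later time point minus that at Year 0.5 was fitted as an interaction over the 18 rats. It is built from the differences known when the genes were selected, and the values are therefore given with their errors and without a test. At Year 2 the interaction of *Lpo* was 2.78 (SE 0.93) and that of *Cybb* 0.74 (SE 0.21) on the log2 scale. Without the Year 2 control rat of high *Lpo*, replicate 3, they were 4.23 and 0.89. The remaining members had Year 2 interactions from -1.29 (SE 0.85) for *Duoxa2* to 0.75 (SE 0.66) for *Duox2*. Of all genes, 0% passed an FDR of 0.05 for the interaction at Year 1 and 1.31% at Year 2, and 8.49% and 13.8% had an unadjusted p under 0.05.

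Other genes of the same systems were taken from lists of oxidase partners, heme peroxidases, thiocyanate and halide transport, removal of superoxide and peroxide, and other oxidant sources. The lists were chosen with earlier results of these data known. Their FDR values therefore describe this comparison and are not separate support. At each time point 41 genes of the lists were tested. Of these, 8 were called higher and 0 lower at Year 0.5, 8 and 0 at Year 1, and 9 and 1 at Year 2. Over all genes tested, 6.07% were called higher and 3.03% lower at Year 0.5, 6.13% and 4.09% at Year 1, and 8.17% and 8.22% at Year 2. These shares stand beside the counts of each list below.

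Among the oxidase partners, 4 of 11 tested were called higher at Year 0.5, 3 of 11 at Year 1, and 4 of 12 at Year 2, with 0 lower. The list's median log2 fold change was 0.41, 0.42, and 0.52, beside -0.02, 0.00, and -0.01 for all genes tested. *Duoxa1*, the maturation factor of DUOX1 and its head-to-head neighbor, had 3.28 ± 0.234, 3.36 ± 0.663, and 3.31 ± 1.33 TPM (SD, n = 3) in control rats and 10.3 ± 0.854, 12.1 ± 0.2503, and 9.79 ± 3.16 TPM in MWCNT-treated rats. The log2 fold change was 1.79 (SE 0.17, FDR 8.96e-05), 2.09 (SE 0.17, FDR 3.58e-05), and 1.79 (SE 0.32, FDR 0.00152). *Duoxa1* thus rose beside *Duox1*, while the other pair of the cluster, *Duox2* and *Duoxa2*, stayed near the limit of detection, and the outer neighbors *Sord* and *Shf* were not called. *Sord*, on the *Duox2* side, was nevertheless higher in MWCNT-treated rats at each time point, by 0.99 (SE 0.11, FDR 0.000186), 0.88 (SE 0.09, FDR 0.00012), and 0.72 (SE 0.13, FDR 0.00138), just under the fold limit at Year 0.5.

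**Figure D3:**
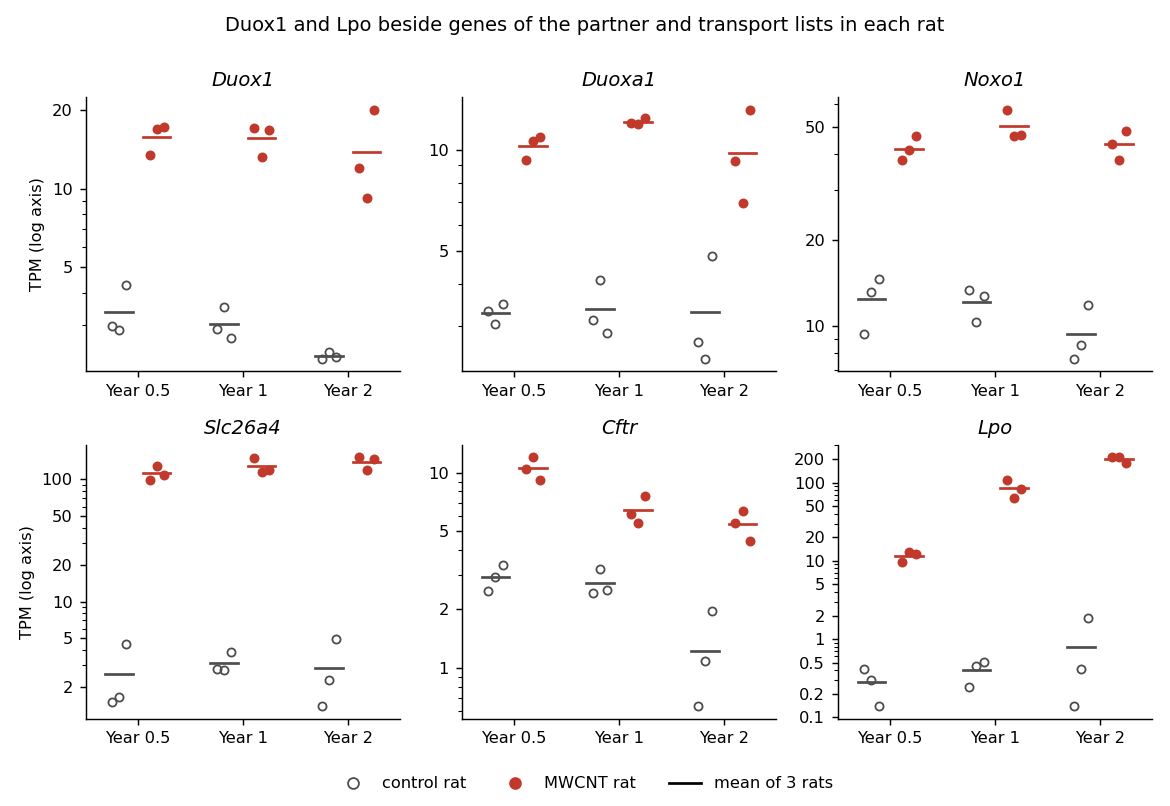
TPM in each rat, on a log axis whose range differs between panels, for *Duox1*, *Duoxa1*, *Noxo1*, *Slc26a4*, *Cftr*, and *Lpo*, with open circles for control rats, filled circles for MWCNT-treated rats, and bars for the mean of 3 rats. In all 6 panels the treated rats lie above the controls of the same time point. *Slc26a4* stays at 98.2 to 153 TPM across the treated rats, whereas *Lpo* goes from 9.79 to 213 TPM.

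*Noxo1*, the organizer subunit of NOX1, rose with log2 fold changes of 1.91 (SE 0.15, FDR 3.73e-05), 2.28 (SE 0.13, FDR 4.92e-06), and 2.43 (SE 0.15, FDR 3.5e-06). It went from group means of 9.37 to 12.4 TPM in controls to 41.9 to 50.3 TPM in MWCNT-treated rats. *Nox1* itself had at most 13 counts in any rat and group means of 0.0727 to 0.394 TPM. *Hvcn1*, the proton channel that balances the charge moved by the phagocyte oxidase, was called at each time point, at 1.57, 1.72, and 2.15. Its entry overlaps *Tctn1* on the other strand, and whether counting used strand is not given in the sources used here, so reads of the 2 genes cannot be told apart in the stretch where the entries overlap, at one end of *Hvcn1*.

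Of the other heme peroxidases, *Pxdn*, an enzyme of basement membranes, was the one tested, and it was not called, with log2 fold changes of -0.34, -0.41, and -0.03. *Mpo*, the neutrophil peroxidase next to *Lpo*, had 0 to 3 counts per rat, and *Epx*, the eosinophil peroxidase, 0 to 8. In the MWCNT-treated rats of Years 1 and 2 *Mpo* had 0 counts in 6 of 6 rats.

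The carriers that bring the substrate of lactoperoxidase into airway fluid included a gene with a difference near that of *Lpo* at Year 0.5 and smaller than it at Years 1 and 2. *Slc26a4*, which encodes pendrin, an exchanger of chloride for thiocyanate, iodide, or bicarbonate, had 1.49 to 4.49, 2.75 to 3.85, and 1.39 to 4.91 TPM in control rats. In MWCNT-treated rats it had 98.2, 130, and 109 TPM at Year 0.5, 150.4, 115, and 119 TPM at Year 1, and 153, 119.5, and 147 TPM at Year 2. The log2 fold change was 5.62 (SE 0.31, FDR 6.95e-06), 5.57 (SE 0.15, FDR 2.09e-07), and 5.85 (SE 0.30, FDR 1.37e-06). *Cftr*, the chloride channel that also passes thiocyanate, rose by 2.00 (SE 0.15, FDR 2.5e-05), 1.48 (SE 0.14, FDR 9.23e-05), and 2.38 (SE 0.31, FDR 0.00024), from 1.22 to 2.91 TPM in control groups to 5.44 to 10.5 TPM in treated groups. In this list 2 of 5 tested were higher and 0 lower at each time point, with *Slc26a9*, *Ano1*, and *Slc12a2* not called, and the list's median was 0.96, 0.52, and 0.84.

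Among 18 genes that remove superoxide and peroxide, 2, 3, and 3 were called higher and 0, 0, and 1 lower at the 3 time points. *Prdx5*, a peroxiredoxin of mitochondria and peroxisomes, rose by 1.58, 1.84, and 1.98 (SE 0.08, 0.13, and 0.07), and *Sod2*, the mitochondrial superoxide dismutase, by 1.44, 1.76, and 1.73 (SE 0.07, 0.08, and 0.11). *Gpx1* was called at Years 1 and 2, at 1.13 and 1.20. *Sod3*, the extracellular dismutase, was called lower at Year 2, at -1.09 (SE 0.09, FDR 1.72e-05), after -0.60 and -0.70 at Years 0.5 and 1. The list's median was 0.10, 0.25, and 0.21, and 16, 15, and 14 members were not called. None of the other oxidant sources, among them the inducible nitric oxide synthase *Nos2* and xanthine dehydrogenase *Xdh*, was called by edgeR in either direction. Of the 6, 6, and 5 tested, 4, 3, and 4 had an unadjusted p under 0.05, beside 47.8%, 50.2%, and 55.9% of all genes, and 3 at each time point an FDR below 0.05, beside 38.8%, 41.2%, and 49.2% of all genes, with changes inside the fold limit. *Maoa* and *Maob* were lower in MWCNT-treated rats at each time point without overlap. *Maob* reached -0.97 (SE 0.08) at Year 2, just inside the limit, and *Xdh* was higher by 0.41 (SE 0.07) at that time point.

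**Figure D4:**
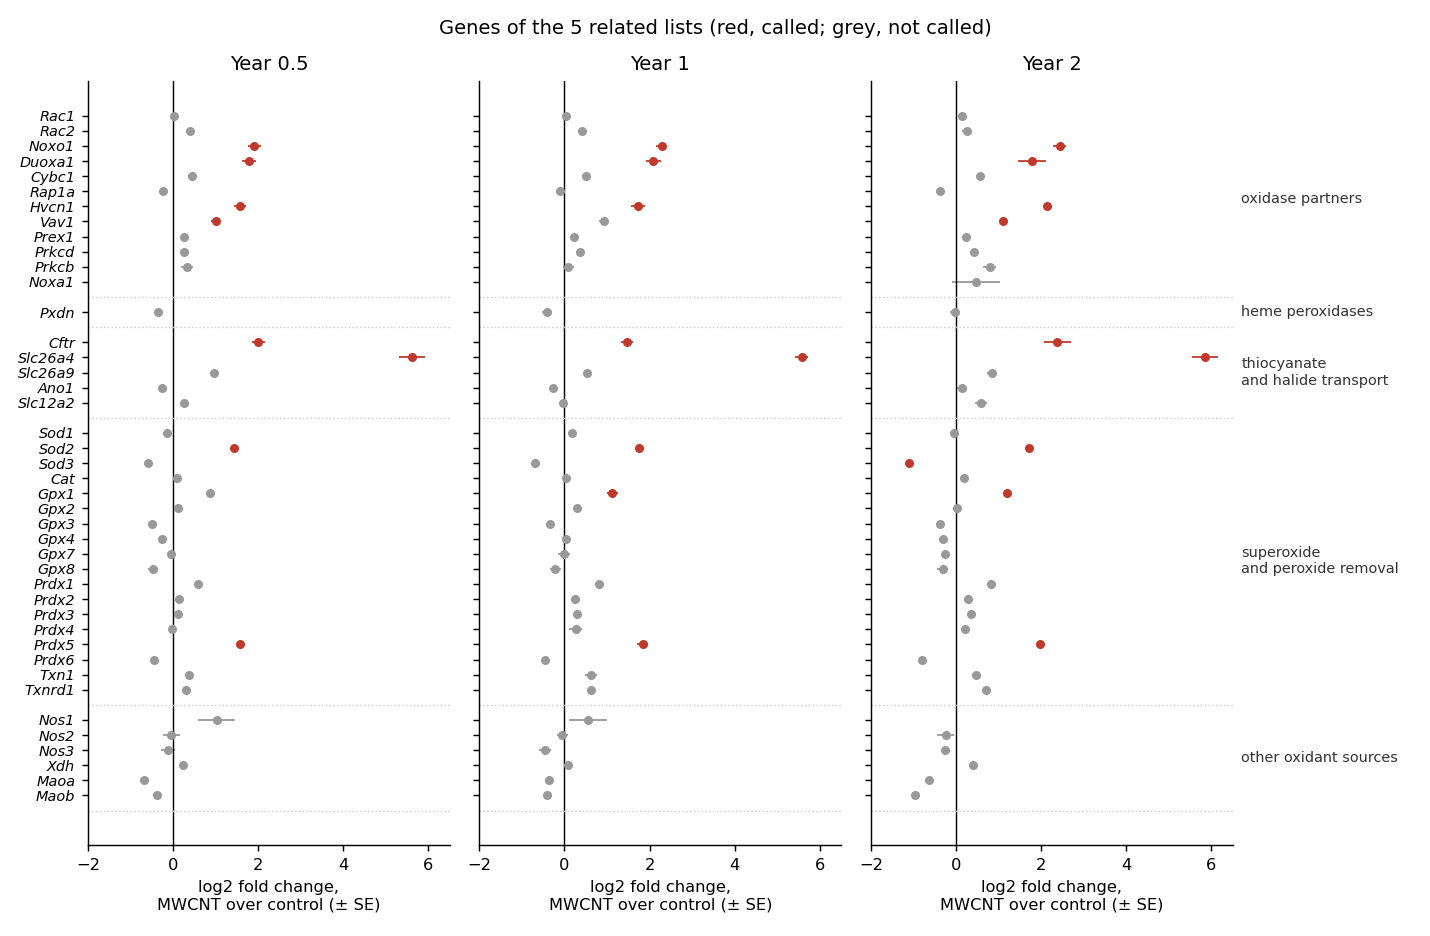
Log2 fold change of MWCNT-treated over control lungs (horizontal axis, with its standard error) for the tested genes of the 5 lists, 1 panel per time point, red where the gene was called and grey where it was not. *Slc26a4* stands apart near 5.6 to 5.9, and most genes that remove peroxide or make other oxidants lie within 1 of 0.

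Markers of other cell types moved between the same groups. Over all genes tested, 6.07%, 6.13%, and 8.17% were called higher and 3.03%, 4.09%, and 8.22% lower at the 3 time points. Of 9 macrophage markers, 6 were called higher at Year 0.5, 5 at Year 1, and 7 at Year 2, and 1, *Cd163*, was called lower at Year 1. Their summed level was 318 to 415 TPM in the control rats and 988 to 1769 TPM in the MWCNT-treated rats, with a mean of 1078 ± 92.2 TPM at Year 0.5, 1220.3 ± 142 TPM at Year 1, and 1709 ± 64.7 TPM at Year 2 (SD, n = 3). The neutrophil list summed to 212 to 384 TPM in controls and 368 to 1148 TPM in treated rats, led by *S100a8* and *S100a9*, with *Elane* at 0 to 2 counts. Of the 6 neutrophil markers tested, *S100a9* was called higher at each time point and *S100a8* at Years 1 and 2, and the other 4 were not called, among them *Csf3r* at -0.06, -0.14, and -0.17. The 5 B cell markers, of another cell type known to express the phagocyte subunits, summed to 43.1 to 91.1 TPM in controls and 12.9 to 42.4 TPM in treated rats, with 3 of 5 called lower at Year 0.5, 0 of 4 at Year 1, and 2 of 4 at Year 2. The part of these cell types in the levels of the oxidase subunits was not tested.

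The ratio of the subunits to other leukocyte genes depended on the gene they were set beside. *Cd68*, a macrophage lysosome gene, was itself higher by 2.44 to 3.03 on the log2 scale. *Cybb* TPM was 1.20 ± 0.0550, 1.19 ± 0.0843, and 1.13 ± 0.0414 times *Cd68* TPM in control rats and 0.871 ± 0.123, 0.745 ± 0.0204, and 0.909 ± 0.0790 times in MWCNT-treated rats (SD, n = 3). *Cyba*, which many cell types express, went from 1.93 to 2.59 times *Cd68* in the control groups to 0.947 to 1.01 times in the treated groups. *Ncf1* went from 0.559 to 0.766 times to 0.332 to 0.340 times, and *Ncf4* from 0.301 to 0.423 times to 0.105 to 0.127 times. In the treated rats the ratios of *Cyba* and *Ncf1* to *Cd68* had about the same mean at the 3 time points. Set beside *Ptprc*, the CD45 gene that leukocytes share, *Cybb* went the other way, from 1.12 ± 0.0813, 1.15 ± 0.1201, and 0.913 ± 0.122 times in control rats to 3.42 ± 0.441, 3.65 ± 0.456, and 4.97 ± 0.645 times in MWCNT-treated rats (SD, n = 3).

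**Figure D5:**
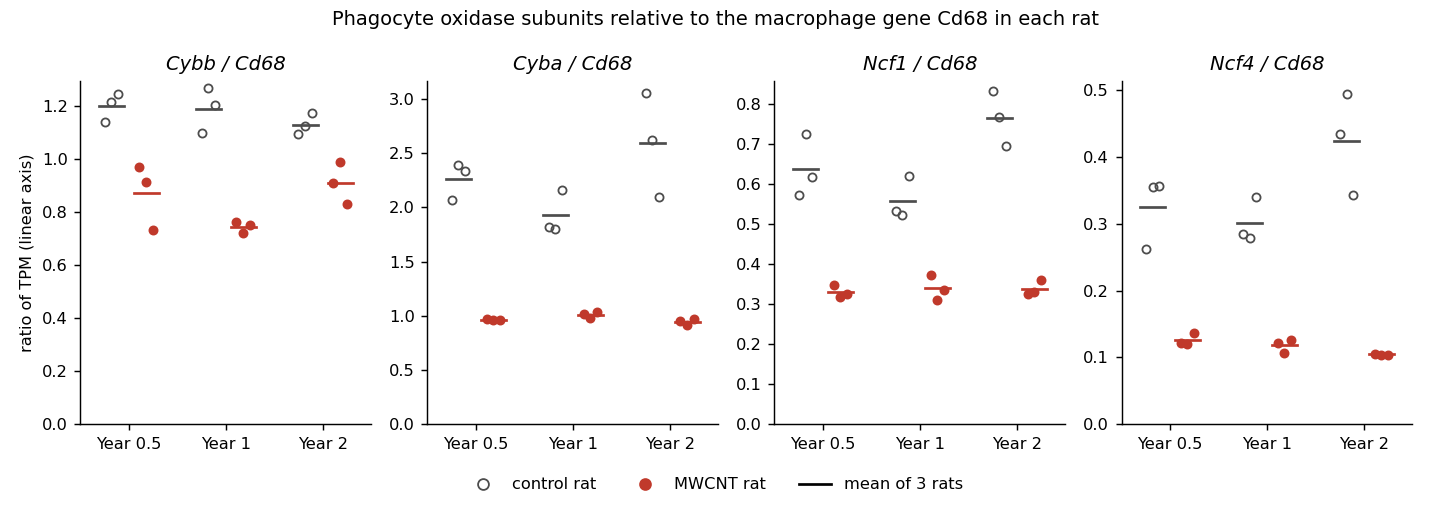
Ratio of the TPM of each phagocyte oxidase subunit to the TPM of *Cd68* in each rat, on linear axes that start at 0, with open circles for control rats, filled circles for MWCNT-treated rats, and bars for the mean of 3 rats. In each of the 4 panels the treated rats lie below the controls of the same time point, in proportion by the least in *Cybb* and by the most in *Ncf4*.

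Summed epithelial markers changed by less than *Lpo*, and single markers within a list differed. The 5 club cell markers summed to 18207 to 33026 TPM in controls and 10673 to 15666 TPM in treated rats, a sum made up mostly of *Scgb1a1*. Within it *Cyp2f4* was called lower at each time point, and *Bpifa1* was called higher at Year 2, at 4.11 (SE 0.77, FDR 0.00197), with 13.2 ± 20.2 TPM in controls and 190 ± 18.6 TPM in treated rats. The 4 ciliated cell markers summed to 55.9 to 101 TPM in controls and 28.7 to 48.6 TPM in treated rats. Mucous cell markers summed to 9.68 to 27.7 TPM and 14.7 to 32.3 TPM, with *Tff2* at 0 in all rats. Of the 4 tested, 2 were called higher at Year 0.5, 0 at Year 1, and 2 at Year 2, with 0 lower. The 2 were *Spdef*, at 1.10 and 1.07, and *Foxa3*, at 1.78 and 1.88. *Agr2* was not called, at -0.80, -0.47, and -0.79 at the 3 time points, nor was *Muc5b*, at -0.09, -0.26, and 1.48. Alveolar type 2 markers summed to 27956 to 36986 TPM in controls and 51419 to 61124 TPM in treated rats, and alveolar type 1 markers to 4335 to 5120 TPM and 2314 to 3357 TPM. The eosinophil list, with *Prg3* at 0 in all rats, summed to at most 4.74 TPM in any rat. The endothelial list, of cells that are among those known to express *Nox4*, summed to 1028 to 1428 TPM in controls and 449 to 809 TPM in treated rats, and the fibroblast list to 1019 to 1826 TPM and 976 to 1493 TPM. The part of these cell types in the levels of *Lpo*, *Duox1*, and *Nox4* was not tested.

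The genes whose profiles were most like those of the members were found by the root mean square difference of log2 CPM, centered on each gene's mean, over the 18 rats and 14843 genes. For *Lpo* they were *Mt3*, *Mmp12*, *Mmp7*, *Slc26a4*, and *Mrgprx2*, with differences of 1.06 to 1.45 on the log2 scale, a measure that grows with the range of the gene, and none of the 5 was shared when profiles were scaled to unit variance. *Mt3* had a course most like it among the 5, with mean levels of 34.1, 56.8, and 136 TPM in MWCNT-treated rats. For *Duox1* they were *C4bpa*, *Noxo1*, *Tmem59l*, *Slc7a7*, and *Chi3l1* at 0.31 to 0.34. For *Cybb* they were *Smpdl3a*, *Lgmn*, *Rassf4*, *Pld3*, and *Siglec1* at 0.10 to 0.16, of which *Lgmn* and *Pld3* encode lysosomal enzymes. For *Nox4* they were *Dennd6a*, *Taf9b*, *Tshz1*, *Prkci*, and AABR07066180.1 at 0.09 to 0.11. The points share library depth, and likeness of profile is a description.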

How the data were processed

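RNA-seq of lung tissue from 18 rats was used, 3 rats per treatment and time point, grouped by the sample labels. Nothing in the labels pairs the rats. The authors mapped the reads in CLC Genomics Workbench 22.0.2 to the rat genome (Rnor_6.0 per the submitters' processing notes) and deposited the count of reads per gene, without normalization, and TPM values. How multi-mapping reads were assigned, which bears on paralogs such as *Duox1* and *Duox2*, is not given in the sources used here. The deposited CPM and RPKM columns, and the authors' own comparison columns (fold changes and p-values), were not used. Total counts were 13297643 to 21130757 per rat, and 0 columns lacked a sample.

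The count analysis used edgeR 4.0.16 under R 4.3.3: filterByExpr (minimum count 10, minimum total count 15), TMM factors, and the quasi-likelihood test. Treatment was fitted on the 6 rats of each time point, and time and interaction in one model of all 18 rats. Benjamini-Hochberg adjustment ran over all genes tested. The method was also run on simulated counts in which few genes changed, as many up as down, with the same dispersion for all genes. The rat data had many more changed genes, so that run does not show how the method performs on them. Alternatives were other filters and scalings, DESeq2 1.42.0, limma 3.58.1 on TPM, a replicate block, and leaving out each rat. Figures and summaries used Python 3.11.15.

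Named genes are the 9 members, up to 3 genes per related list with the largest called change, the 5 most alike profiles for *Lpo*, *Duox1*, *Cybb*, and *Nox4*, neighbors of *Lpo* and the *Duox* genes, and marker genes at 0 or leading a list. *Sod3* and *Pxdn* were named outside these rules. *Nos2*, *Xdh*, *Maoa*, *Maob*, *Nox1*, *Slc26a9*, *Ano1*, *Slc12a2*, *Cd163*, *Csf3r*, *Cyp2f4*, *Bpifa1*, *Spdef*, *Foxa3*, *Agr2*, *Muc5b*, and *Ptprc* were named after their values were seen. The members and lists were chosen with earlier results of these data known. P-values set a difference between groups against the spread between these rats.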

Additional observations from a re-analysis of the deposited data

How the results depend on the processing

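*Lpo*, *Duox1*, *Cybb*, *Cyba*, *Ncf1*, and *Ncf4* stayed higher and *Nox4* lower in MWCNT-treated lungs under each alternative that gave them a value, and the number called was 5 to 7. It was 5 with limma, where *Ncf4* missed the fold limit, and 5 with at least 10 counts required in each rat, which removed *Lpo*. With upper quartile scaling *Ncf4* also missed the fold limit at Year 2, at 0.98. With the FDR as sole criterion, 28, 28, and 29 listed genes passed at Years 0.5, 1, and 2, beside 38.8%, 41.2%, and 49.2% of all genes, and 4 members at Year 2 against Year 0.5 in MWCNT-treated rats, beside 13.5%. Interactions, described and not tested above, were called for 0 members by edgeR, where 2 at Year 1 and 4 at Year 2 had an unadjusted p under 0.05, beside 8.49% and 13.8% of all genes. At Year 2 they were called for 2 members by DESeq2 and for 1 by limma on log2(TPM + 1), which also called 1 at Year 1, and for 0 to 2 members with a rat left out. The cause was not tested. Since the levels in all 6 groups were known when the members were selected, their calls between time points and for the interaction are given as a description. The rats share replicate numbers only by label, and same-numbered rats did not deviate together (mean r 0.00685 over 9 pairs, -0.00319 over 18 other pairs). With a replicate block 6 members were called at each time point, no call changed, and the interaction of *Duox2* at Year 1 was -0.00199.

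Small time effects, none of them called, changed sign. Under limma on log2(TPM + 1) the MWCNT change was -0.015 for *Duox1* and -0.029 for *Cybb* at Year 1 and -0.011 for *Duox2* at Year 2, and the interaction of *Ncf4* at Year 1 was -0.0375. With a rat left out in turn, on the log2 scale, the ranges crossed 0 as follows. The control change at Year 1 ran from -0.080 to 0.14 for *Ncf1*, from -0.053 to 0.20 for *Ncf4*, from -0.11 to 0.046 for *Cyba*, from -0.28 to 0.026 for *Duox1*, from -0.55 to 0.085 for *Duox2*, from -0.074 to 0.12 for *Nox4*, and from -0.62 to 1.10 for *Duoxa2*. The control change at Year 2 ran from -0.036 to 1.90 for *Lpo*. The MWCNT change at Year 1 ran from -0.065 to 0.12 for *Duox1*, from -0.42 to 0.38 for *Duoxa2*, from -0.13 to 0.15 for *Cybb*, and from -0.49 to 0.15 for *Duox2*. The MWCNT change at Year 2 ran from -0.12 to 0.22 for *Duox2*, from -0.64 to 0.17 for *Duoxa2*, and from -0.48 to 0.11 for *Duox1*. The interaction at Year 1 ran from -0.044 to 0.20 for *Ncf4*, from -0.30 to 0.47 for *Duox2*, and from -1.25 to 0.46 for *Duoxa2*. The interaction at Year 2 ran from -0.13 to 0.12 for *Ncf4*. The lists of alike profiles shared 0 of 5 genes for *Lpo* and *Duox1* and 2 of 5 for *Cybb* and *Nox4* when profiles were scaled to unit variance. *Duox2* and *Duoxa2* had at most 28 counts in any rat, and the standard errors of their log2 values were 0.39 to 0.85.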
